A study of Homo sapiens with 15 samples.

Results

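The genes described here are 29 genes of cholesterol and fatty acid synthesis, given by name as a list. All 29 were found among the 57272 genes of the count table, and all 29 passed the filter on low counts that left 15799 genes for testing. They comprise 3 regulators, 7 genes of the mevalonate pathway, 11 genes of sterol synthesis, 6 genes of fatty acid synthesis and desaturation, and 2 genes of lipid handling. RNA was sequenced from MRC-5 cells, primary human fetal lung fibroblasts grown at 5% oxygen, in 5 groups with 3 replicates each. All cells carried a lentiviral vector and had received an siRNA. Young cells were collected at population doubling 30 with the empty vector (pWPIR-GFP) and a control siRNA, with the vector for TRF2 (pWPIR-GFP-TRF2) and the control siRNA, or with the empty vector and an siRNA against LMNB1 (siLMNB1). Senescent cells were infected with the empty or the TRF2 virus before they senesced, and were given the control siRNA once they had stopped dividing. The senescent cells with TRF2 stopped at a later population doubling than those with the empty vector. TRF2, encoded by TERF2, is a protein of the telomere-capping shelterin complex, and LMNB1 encodes Lamin B1, a structural protein of the nuclear envelope.

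Cells make cholesterol from acetyl-CoA. The mevalonate pathway builds isoprenoid units, squalene is joined from them and closed into lanosterol, and a series of sterol enzymes trims lanosterol to cholesterol. Fatty acids are built from the same precursor by ACACA and FASN, and then lengthened and desaturated. Genes of both routes are known targets of the transcription factors SREBP-1 and SREBP-2, encoded by SREBF1 and SREBF2. When membrane sterol is low, the escort protein SCAP carries these factors to the Golgi for cleavage, and when it is high, INSIG1 and INSIG2 hold the complex in the endoplasmic reticulum. INSIG1 is itself a target of SREBP. Only RNA was measured here, not sterols, lipids or the cleaved factors.

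The library totals ranged from 26725885 to 43116046 counts. LMNB1, the target of the siRNA, stood at 60.98, 59.5 and 58.6 CPM (counts scaled to a common library size) in the 3 young libraries with the empty vector and at 2.36, 2.91 and 2.75 with siLMNB1. TERF2 stood at 23.95, 25.5 and 21.9 CPM with the empty vector and 128, 307 and 149 with TRF2 in young cells, and at 23.3, 25.6 and 25.98 against 210, 285 and 209.9 in senescent cells. The fibroblast genes chosen as markers were high in every group, with the 11 genes summing to 24600 CPM or more, whereas the 4 leukocyte markers summed to at most 3.50 CPM. The epithelial list summed to at most 2.17 CPM apart from young libraries with the empty vector, where it reached 13.7, and the endothelial list summed to 23.2 to 70.6 CPM, most of it TEK. According to their labels all 6 senescent libraries, and 0 of the 9 young ones, were taken over from an earlier deposit, so that deposit and senescence cannot be told apart. Relative to the mean young library with the empty vector, log2 counts moved by −0.00634 to 0.134 per 10 percentage points of GC content of the gene in young libraries, and by 0.460 to 0.823 in senescent ones. Replicate 3 of the empty-vector senescent cells stood apart with the highest of these slopes, and its label refers to an earlier record outside the consecutive run of the other 5 senescent libraries. For this reason a second fit gave every library offsets for the GC content and length of the genes. Its counts stand beside those of the first fit, as do the counts without that replicate, and its values for the genes on which the results turn are given with them. The 10 genes of dividing cells, from MKI67 to PLK1, summed to 807 to 846 CPM in young cells with the empty vector, 428 to 436 with siLMNB1, 182 to 194 in senescent cells with the empty vector and 132 to 148 in senescent cells with TRF2, and all 10 fell in each of the senescence and siLMNB1 comparisons. With TRF2 against the empty vector in senescent cells, 9 of these 10 were also lower, against 6.41% of all genes tested. In the same comparison 8 of the 11 fibroblast genes were higher, against 4.87%. The part of these differences in the results on the lipid genes was not tested.

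The promoters of 5 genes on which the results turn are shown first, because MVD and TM7SF2 had the largest rises in senescent cells, and TM7SF2, HMGCS1, ELOVL6 and INSIG1 the largest changes with siLMNB1. Each sequence runs from 250 bases before to 50 bases after the start of the gene in RefSeq on GRCh38, 5′ to 3′ on the strand of the gene, and is the first window listed for it. MVD is at chr16:88663042-88663341 on the minus strand, TM7SF2 at chr11:65111622-65111921 on the plus strand, HMGCS1 at chr5:43313363-43313662 on the minus strand, INSIG1 at chr7:155297628-155297927 on the plus strand and ELOVL6 at chr4:110198566-110198865 on the minus strand. Capitals mark matches on either strand to CCAAT, the box read by NF-Y, or to CACNCCAC, the core of a sterol regulatory element of the classical type.
MVD: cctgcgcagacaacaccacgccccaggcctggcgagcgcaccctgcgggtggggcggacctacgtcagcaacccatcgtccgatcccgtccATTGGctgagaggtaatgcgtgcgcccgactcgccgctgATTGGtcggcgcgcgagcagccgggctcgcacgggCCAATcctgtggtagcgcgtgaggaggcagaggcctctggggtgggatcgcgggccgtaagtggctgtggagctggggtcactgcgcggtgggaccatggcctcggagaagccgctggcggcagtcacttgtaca
TM7SF2: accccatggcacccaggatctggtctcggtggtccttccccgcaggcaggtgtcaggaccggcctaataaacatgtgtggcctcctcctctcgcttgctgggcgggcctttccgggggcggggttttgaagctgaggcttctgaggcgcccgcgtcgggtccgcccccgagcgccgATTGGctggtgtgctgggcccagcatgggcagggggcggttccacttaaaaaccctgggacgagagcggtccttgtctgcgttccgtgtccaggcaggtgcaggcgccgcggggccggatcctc
HMGCS1: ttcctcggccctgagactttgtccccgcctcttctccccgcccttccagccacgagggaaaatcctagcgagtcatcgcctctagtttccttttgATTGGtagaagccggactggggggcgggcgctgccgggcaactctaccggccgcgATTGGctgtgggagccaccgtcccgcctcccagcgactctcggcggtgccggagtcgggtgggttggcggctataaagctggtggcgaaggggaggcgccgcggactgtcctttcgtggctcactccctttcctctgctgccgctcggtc
INSIG1: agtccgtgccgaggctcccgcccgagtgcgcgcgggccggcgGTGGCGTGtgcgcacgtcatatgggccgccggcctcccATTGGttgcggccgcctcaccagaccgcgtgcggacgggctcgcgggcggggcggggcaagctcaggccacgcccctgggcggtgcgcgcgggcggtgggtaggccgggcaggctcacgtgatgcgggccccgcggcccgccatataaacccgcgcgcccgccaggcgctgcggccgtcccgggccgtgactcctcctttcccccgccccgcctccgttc
ELOVL6: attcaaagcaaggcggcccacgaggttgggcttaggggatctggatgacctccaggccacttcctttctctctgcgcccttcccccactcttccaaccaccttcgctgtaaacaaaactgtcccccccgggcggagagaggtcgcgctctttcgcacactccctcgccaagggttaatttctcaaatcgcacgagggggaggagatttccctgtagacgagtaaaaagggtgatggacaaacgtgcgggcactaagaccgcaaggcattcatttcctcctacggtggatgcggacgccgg

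The window of MVD held 3 CCAAT boxes, that of HMGCS1 2, and those of TM7SF2 and INSIG1 1 each, and none was found in that of ELOVL6. The CACNCCAC core was found in INSIG1 alone among these 5 windows, starting 208 bases before the gene's start. RefSeq windows were at hand for 25 of the 29 genes, and those of ACAT2, FDFT1, SQLE and FASN were not used here. Over both strands and all windows of a gene, CCAAT was present in 19 of these 25 genes (76%), against 39.7% of the 27305 genes with windows. The core was present in 6 of 25 (24%, in SREBF2, INSIG1, IDI1, SC5D, ACACA and SCD) against 7.05%, and the GC box GGGCGG in 24 of 25 (96%) against 48.3%. Matches of different motifs shared a base in 0 of the 35 windows of these genes. The 27305 genes were not limited to the 15799 tested here, so these shares are not set against expressed genes alone. A match is not evidence of binding, and the absence of these letters from a window says nothing about the factors.

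In young cells with the empty vector the genes spanned a wide range of levels per exonic length, given as RPKM, which is CPM divided by the exonic length in kilobases (mean ± SD, n = 3). SCD, the desaturase that makes oleate, was the highest at 93.7 ± 11.4 RPKM, followed by the methylsterol oxidase MSMO1 at 69.2 ± 3.10, INSIG1 at 45.1 ± 2.01 and the squalene synthase FDFT1 at 35.7 ± 0.915. These 4 were separated from each other by more than their SDs. A middle group from SQLE at 28.5 ± 0.631 through FASN, PMVK and FADS2 to NSDHL at 25.5 ± 0.226 was close together, and the neighbours FASN (27.1 ± 1.34), PMVK (26.6 ± 2.02) and FADS2 (26.3 ± 1.82) lay within their SDs. SREBF2 stood at 19.9 ± 0.987 RPKM and SREBF1 at 5.85 ± 0.554. The lowest were TM7SF2 at 2.93 ± 0.465, MVK at 2.19 ± 0.0879, HSD17B7 at 1.63 ± 0.157 and CYP51A1 at 1.07 ± 0.105. The level of CYP51A1, the demethylase of lanosterol, must be read with care, since 68.2% of its exonic bases are shared with a same-strand protein-coding gene that the count table does not list.

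**Figure D1:**
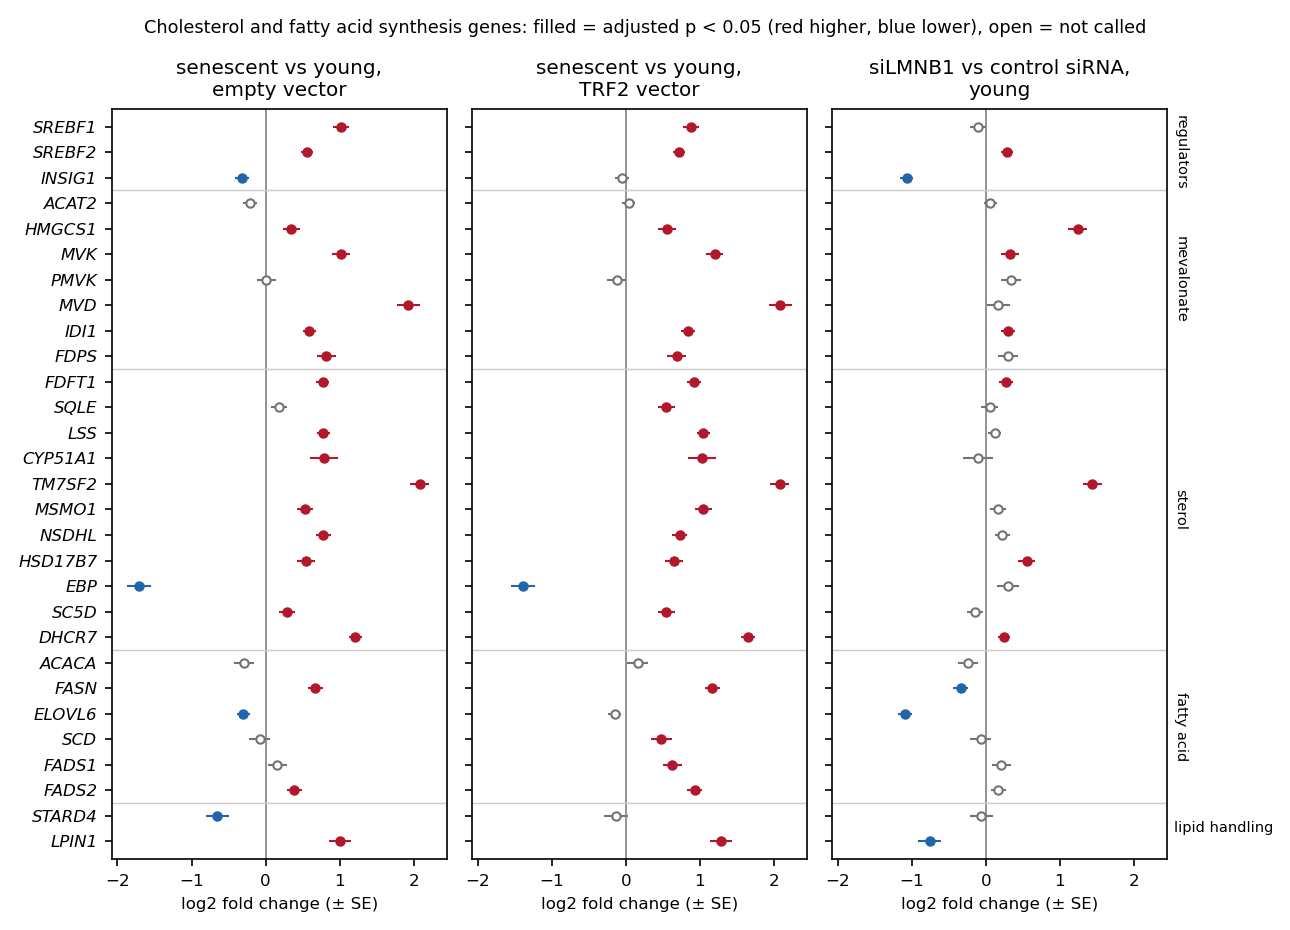
Log2 fold changes (horizontal axis, ± SE) of the 29 genes (vertical axis, ordered by role) in senescent against young cells carrying the empty vector, in senescent against young cells carrying TRF2, and in young cells with siLMNB1 against those with the control siRNA. Filled red points are higher and filled blue points lower at an adjusted p below 0.05: 19 and 4 genes in the left panel, 22 and 1 in the middle and 8 and 4 on the right.

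The first comparison asked how these genes differed in senescence, in cells that carried the empty vector. Of the 29 genes, 19 rose and 4 fell at an adjusted p below 0.05 (edgeR's quasi-likelihood test, Benjamini-Hochberg adjustment over all genes tested), where 32.7% of all genes tested rose and 31.9% fell. The median log2 fold change of the 29 genes was 0.55, against 0.02 over all genes tested. With the additional threshold of 1 on the log2 scale that the study set for differentially expressed genes (DEGs), 6 rose (SREBF1, MVK, MVD, TM7SF2, DHCR7 and LPIN1) and EBP fell, against 16.7% and 11.8% of all genes tested. In bulk RNA, a lower count can come from fewer cells of a kind or from less RNA per cell, and these cannot be told apart. With the offsets described above, MVD, TM7SF2 and LPIN1 stayed above that threshold, SREBF1, MVK and DHCR7 came to 0.23, 0.59 and 0.79, and CYP51A1, MSMO1 and HSD17B7 passed it at 1.32, 1.17 and 1.09, so that again 6 genes rose and EBP fell, against 11.7% and 9.488% of all genes in that fit. Without replicate 3 of the senescent cells, 21 rose and 5 fell, against 30.72% and 32.99% of all genes. In that fit 4 passed the fold threshold upward, against 13.6% of all genes, SREBF1 and MVK falling below it at 0.90 and 0.87. SREBF1, MVK and LPIN1 lay just above the fold threshold, and the count above it was 3 when replicate 1 of the young or replicate 2 of the senescent cells with TRF2 was left out of the shared fit.

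Among the regulators, both SREBF genes rose. SREBF1, whose product drives mainly fatty acid genes, stood at 52.6, 48.45 and 43.5 CPM in the young and 86.1, 96.4 and 111 in the senescent libraries (log2 fold change 1.02 ± 0.11 SE, adjusted p = 5.1e-07). SREBF2, whose product drives mainly sterol genes, stood at 169.7, 156 and 156 CPM in young and 261, 233.5 and 217 in senescent cells (log2 fold change 0.56 ± 0.08 SE, adjusted p = 1.1e-05). For both genes every senescent library lay above every young one. INSIG1 moved the other way, with 173, 158 and 163 CPM in young and 143, 134 and 118 in senescent cells, all senescent values below the young ones (log2 fold change −0.32 ± 0.09 SE, adjusted p = 0.0053). With the GC and length offsets, SREBF1 kept a rise of 0.23 (adjusted p = 0.023), whereas SREBF2 came to 0.08 (adjusted p = 0.43) and INSIG1 to −0.01 (adjusted p = 0.9).

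In the mevalonate pathway 5 of 7 genes rose, 0 fell at an adjusted p below 0.05 in edgeR or in DESeq2's Wald test, and the median log2 fold change was 0.59. By unadjusted p, 6 of the 7 passed 0.05, the additional one being ACAT2, the thiolase of the first step, at −0.21 (adjusted p = 0.064). MVD, the decarboxylase that yields isopentenyl diphosphate, had the largest rise. It stood at 62.3, 59.8 and 58.8 CPM in young and 208, 175 and 305 in senescent cells (log2 fold change 1.93 ± 0.15 SE, adjusted p = 1.5e-08), and the senescent libraries were both higher and more scattered than the young. MVK, the mevalonate kinase, went from 19.9, 18.9 and 20.4 to 41.8, 31.3 and 46.9 CPM (log2 fold change 1.02 ± 0.12 SE, adjusted p = 1.7e-06). FDPS, the farnesyl diphosphate synthase, stood at 44.7, 38.6 and 39.7 CPM in young and 60.2, 64.6 and 92.7 in senescent cells (log2 fold change 0.82 ± 0.13 SE, adjusted p = 4.4e-05). None of these 3 had overlapping groups, though FDPS has 8 annotated pseudogenes and shares 18.6% of its exonic bases with an antisense RNA, so its count is uncertain. With the offsets MVD, MVK and FDPS rose by 1.07, 0.59 and 0.51. IDI1, the isomerase, rose by 0.59 (0.99 with the offsets) and HMGCS1, the cytosolic HMG-CoA synthase, by 0.35 (adjusted p = 0.02), but the HMGCS1 groups overlapped and the call was lost without replicate 1 of the senescent cells (0.19, adjusted p = 0.14) or replicate 2 of the young cells (0.30, adjusted p = 0.082), while with the offsets it rose by 0.86. PMVK, the second kinase, was at 0.01 (adjusted p = 0.95), and with the offsets it was lower in senescent cells (−0.77, adjusted p = 7.7e-06).

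Sterol synthesis was the group with the most calls, 9 of 11 genes rising and 1 falling, with a median of 0.77. TM7SF2, one of the pair of sterol reductases that act right after CYP51A1, stood at 11.3, 8.22 and 10.4 CPM in young and 44.4, 35.3 and 46.7 in senescent cells (log2 fold change 2.08 ± 0.13 SE, adjusted p = 1.3e-09), a rise of 4.23-fold with no overlap. DHCR7, the reductase of the last step to cholesterol, went from 127, 119.6 and 126 to 315, 268 and 279.9 CPM (log2 fold change 1.21 ± 0.09 SE, adjusted p = 5.1e-09), also without overlap. CYP51A1, LSS, NSDHL and FDFT1 rose by 0.79, 0.78, 0.78 and 0.77 on the log2 scale, and HSD17B7, MSMO1 and SC5D by 0.55, 0.53 and 0.29. The call for SC5D, at an adjusted p of 0.029, was lost when any one of 6 libraries was left out, among them each young library with the empty vector and replicates 1 and 2 of the senescent cells, with adjusted p between 0.051 and 0.15. SQLE, the squalene epoxidase, stood at 0.18 (adjusted p = 0.15).

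EBP, the sterol isomerase, was the exception among the sterol genes. It stood at 32.8, 34.1 and 32.97 CPM in young and 8.85, 7.67 and 13.96 in senescent cells (log2 fold change −1.71 ± 0.16 SE, adjusted p = 1.2e-07). It shares 36.4% of its exonic bases with a same-strand protein-coding gene that the table does not list. Of the 155 tested genes that share at least 20% of their exonic bases with such an unlisted gene, 103 (66.5%) fell and 28 rose in this comparison, with a median of −1.97. The corresponding figures were 105 (67.7%) and 20 with TRF2, and 16 (10.3%) and 25 with siLMNB1, where the young libraries were on both sides. Whether this sharing has a part in the lower EBP count was not tested. Leaving out EBP and CYP51A1, the 2 genes that share bases in this way, gave 18 genes higher and 3 lower.

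The 6 genes of fatty acid synthesis were divided, with 2 called higher, 1 called lower and a median of 0.04. FASN, the fatty acid synthase, stood at 257, 262 and 239 CPM in young and 441, 423 and 342 in senescent cells (log2 fold change 0.67 ± 0.10 SE, adjusted p = 2.9e-05). FADS2, the first desaturase of the polyunsaturated series, went from 299, 273 and 261 to 428, 309 and 356 CPM (log2 fold change 0.39 ± 0.10 SE, adjusted p = 0.0027). ELOVL6, which lengthens palmitate, stood at 57.6, 56.1 and 57.98 CPM in young and 49.1, 48.6 and 41.3 in senescent cells (log2 fold change −0.30 ± 0.09 SE, adjusted p = 0.0076). None of the 3 overlapped between groups, but all 3 changed sign with the GC and length offsets, FASN to −0.33 (adjusted p = 0.031), FADS2 to −0.12 (adjusted p = 0.32) and ELOVL6 to 0.11 (adjusted p = 0.2). No direction is therefore given for the fatty acid genes in this comparison. ACACA, the carboxylase of the first step, SCD and FADS1 were at −0.29, −0.08 and 0.16, with adjusted p of 0.073, 0.61 and 0.3.

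Of the 2 genes of lipid handling, LPIN1 rose and STARD4 fell. LPIN1, a phosphatidate phosphatase on the way to triglycerides and phospholipids, stood at 55.1, 55.4 and 54.3 CPM in young and 133, 117 and 82.5 in senescent cells (log2 fold change 1.01 ± 0.15 SE, adjusted p = 1.6e-05), and kept its rise with the offsets (1.14). STARD4, a carrier of cholesterol between membranes, went from 55.75, 55.8 and 52.3 to 46.3, 34.5 and 23.65 CPM (log2 fold change −0.65 ± 0.16 SE, adjusted p = 0.0019). Its groups did not overlap, but with the offsets it came to 0.10 (adjusted p = 0.37).

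**Figure D2:**
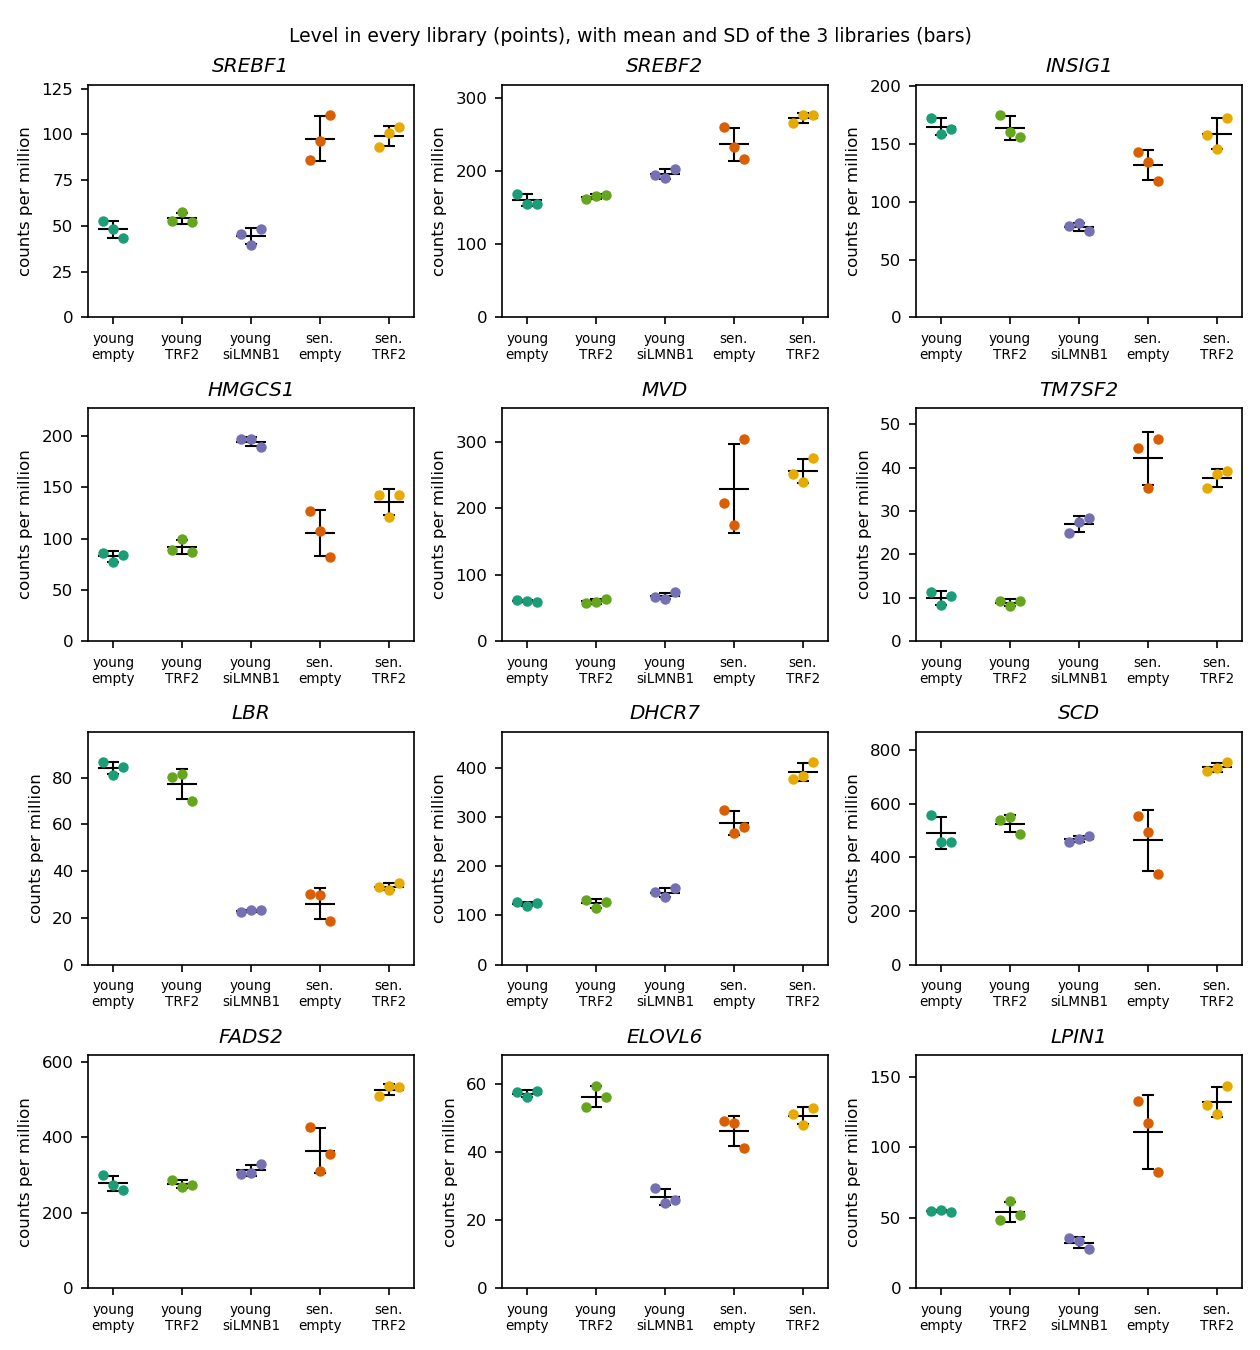
CPM (vertical axes, from 0) in each of the 15 libraries for 11 of the 29 genes and for LBR, with the mean and SD of the 3 libraries of each group as black bars. In both senescent groups SREBF1, SREBF2, MVD, TM7SF2, DHCR7 and LPIN1 lie above all young libraries with either vector, LBR lies below the young libraries with the control siRNA, and the libraries with siLMNB1 stand apart from the other young libraries for INSIG1, HMGCS1, TM7SF2, LBR, ELOVL6 and LPIN1.

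The offsets changed the picture within the group more than its total. With them, 17 of the 29 genes rose and 4 fell, with a median of 0.51, against 30.71% and 26.86% of all genes tested in that fit. Of the genes called without offsets, 16 were higher in both fits and EBP was lower in both. The genes have a GC content between 34.6% and 65.2% over their exons, and FASN (65.2%), MVD (63.0%), TM7SF2 (62.7%) and SREBF1 (61.5%) are the richest. Across the 29 genes, which are not independent replicates, the correlation of the log2 fold change with GC content was 0.44 without and −0.27 with the offsets. The rises of MVD and TM7SF2 were smaller with the offsets, at 1.07 and 1.28, as were those of DHCR7 and LSS, at 0.79 and 0.36, whereas those of the GC-poor genes MSMO1, CYP51A1 and SC5D were larger, at 1.17, 1.32 and 0.94. Of the 11 sterol genes, 10 rose with the offsets, with SQLE among them at 0.63 (adjusted p = 3.7e-06), and EBP fell. Thus 9 sterol genes rose with and without offsets, while 0 of the 6 fatty acid genes did.

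**Figure D3:**
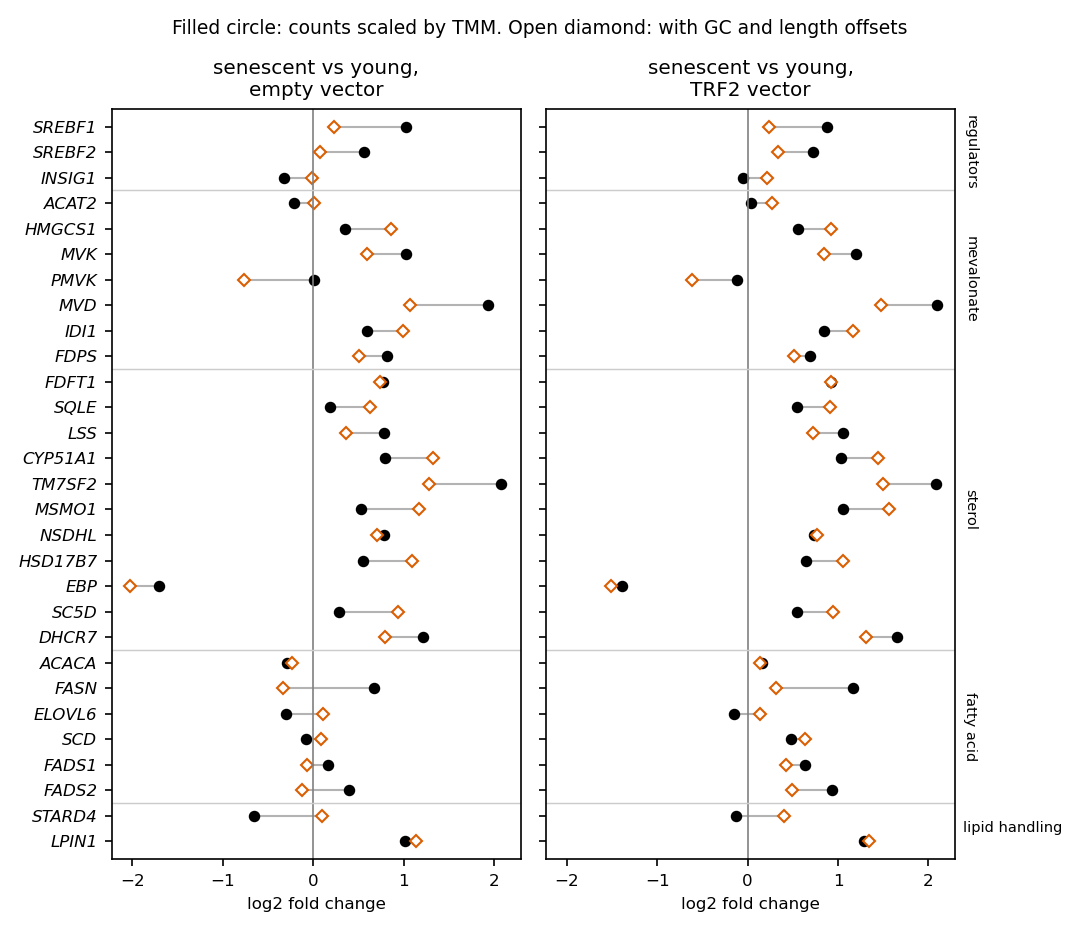
Log2 fold changes (horizontal axis) of the 29 genes (vertical axis) in senescent against young cells, carrying the empty vector (left) or TRF2 (right), from counts scaled by TMM (filled circles) and with the offsets for GC and length (open diamonds). Of the genes called without offsets on the left, FASN, FADS2, ELOVL6 and STARD4 cross 0, whereas 16 genes are called higher in both fits on the left and 22 on the right.

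Other genes of the same routes were taken from lists of pathway knowledge. Of 18 further genes of sterol synthesis, uptake and its control, 5 rose and 6 fell, with a median of 0.00, against 32.7% and 31.9% of all genes tested. With the offsets 8 rose and 6 fell, against 30.71% and 26.86%. Without replicate 3 of the empty-vector senescent cells 6 rose and 6 fell, against 30.72% and 32.99%. Of these genes, the escort SCAP rose by 0.67 (0.07 with the offsets, adjusted p = 0.52) and INSIG2 was at 0.04 (0.74 with the offsets, adjusted p = 1.6e-06). ACLY and ACSS2, which supply cytosolic acetyl-CoA, rose by 0.73 and 0.96, and by 0.60 and 0.85 with the offsets.

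LBR encodes the other sterol reductase that acts after CYP51A1, and it is also a receptor for B-type lamins in the inner nuclear membrane. It moved opposite to TM7SF2. LBR stood at 86.6, 81.3 and 84.6 CPM in young and 30.01, 29.8 and 18.5 in senescent cells (log2 fold change −1.69 ± 0.14 SE, adjusted p = 2.9e-08), and the 3 senescent values were all far below the young ones, and the log2 fold change was −1.31 with the offsets. Of 21 tested genes of fatty acid and glycerolipid synthesis outside the 29, 10 rose and 5 fell (median 0.19), with 10 and 4 under the offsets and 8 and 5 without replicate 3 of the empty-vector senescent cells. Of 12 tested genes of sterol export, storage and its sensing, 8 rose and 2 fell (median 0.58), with 8 and 2 under the offsets. Without that replicate 13 were tested, and 8 rose and 3 fell. These counts stand against 32.7% and 31.9% of all genes, 30.71% and 26.86% with the offsets, and 30.72% and 32.99% without that replicate. In the last list ABCA1, the cholesterol exporter, rose by 0.67 and MYLIP, a ubiquitin ligase induced by the sterol sensors LXR, by 0.51. The groups of both genes overlapped. ABCA1 stood at 79.9, 106 and 45.1 CPM in senescent and 49.5, 48.2 and 47.7 in young cells. In the first fit 1 of the 22 listed genes of fatty acid and glycerolipid synthesis and 1 of the 13 of the sterol export list did not pass the filter on low counts.

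The second comparison set senescent cells with TRF2 against young cells with TRF2, and shares no library with the first. Of the 29 genes, 22 rose and 1 fell, against 28.2% and 30.1% of all genes tested, with a median of 0.72 against −0.02. Past the fold threshold, 9 genes rose (MVK, MVD, LSS, CYP51A1, TM7SF2, MSMO1, DHCR7, FASN and LPIN1) and EBP fell, against 11.9% and 12.1%. With the offsets 25 rose and 2 fell, the second being PMVK (−0.61), against 28.75% and 27.03% of all genes in that fit, and 22 were higher in both fits. INSIG1, ACAT2 and STARD4 were the 3 gained, at 0.22, 0.27 and 0.40. Past the fold threshold the offsets left 8 genes higher, with MVK, LSS and FASN below it at 0.85, 0.72 and 0.32, and IDI1 and HSD17B7 above it at 1.17 and 1.06, and EBP lower, against 9.254% and 10.98%. Without replicate 3 of the empty-vector senescent cells, which enters the shared fit, 23 rose and 2 fell, against 31.4% and 34.39% of all genes. In the 2 comparisons 25 of the 29 genes had the same sign. The 19 genes that rose with the empty vector also rose with TRF2, as 24.46% of all genes tested did in both, and SQLE, SCD and FADS1 passed the test with TRF2 but not with the empty vector. Whether the deposit has a part in these rises was not tested, because it separates the groups here as well.

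With TRF2, SREBF1 stood at 52.9, 57.4 and 51.95 CPM in young and 92.98, 101 and 104 in senescent cells (log2 fold change 0.88 ± 0.11 SE, adjusted p = 3.1e-06). SREBF2 went from 162, 167 and 168 to 266, 277 and 277.5 CPM (log2 fold change 0.72 ± 0.08 SE, adjusted p = 7.6e-07). With the offsets SREBF1 rose by 0.24 (adjusted p = 0.017) and SREBF2 by 0.34 (adjusted p = 0.0033). INSIG1, at 175, 160.1 and 156 CPM in young and 158, 146 and 172 in senescent cells, had overlapping groups (log2 fold change −0.05 ± 0.09 SE, adjusted p = 0.69), but was called higher with the offsets (0.22, adjusted p = 0.022). The CPM of both SREBF genes were thus higher in senescent cells with either vector, with no overlap, although with the offsets SREBF2 was not called with the empty vector. In the mevalonate pathway 5 of 7 genes rose, the same 5 as with the empty vector. MVD went from 57.2, 58.9 and 63.8 to 252, 240 and 275 CPM (log2 fold change 2.09 ± 0.15 SE, adjusted p = 5.8e-09), MVK from 22.95, 20.98 and 22.9 to 50.3, 48.75 and 54.3 (log2 fold change 1.20 ± 0.12 SE, adjusted p = 2.7e-07) and IDI1 from 91.1, 86.1 and 83.6 to 158, 137 and 174 (log2 fold change 0.84 ± 0.09 SE, adjusted p = 8.2e-07). All 3 were separated from the young libraries, and the senescent MVD values were less scattered than those with the empty vector. HMGCS1 and FDPS rose by 0.56 and 0.69, ACAT2 was at 0.04 (adjusted p = 0.75, and 0.0074 with the offsets) and PMVK at −0.12 (adjusted p = 0.47).

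Of the 11 sterol genes, 10 rose and EBP fell. TM7SF2 stood at 9.345, 7.98 and 9.27 CPM in young and 35.2, 38.5 and 39.1 in senescent cells (log2 fold change 2.08 ± 0.13 SE, adjusted p = 1.2e-09), a rise of 4.24-fold. DHCR7 went from 132, 115 and 128 to 378, 383 and 412 CPM (log2 fold change 1.65 ± 0.09 SE, adjusted p = 1.3e-10), a 3.13-fold rise. EBP went from 31.2, 28.4 and 32.2 to 11.5, 10.6 and 12.7 CPM (log2 fold change −1.39 ± 0.16 SE, adjusted p = 1.1e-06), with the sharing of bases described above. The other 8 sterol genes lay between 0.55, for SQLE and SC5D, and 1.05, for MSMO1 and LSS. With the offsets DHCR7 and EBP were at 1.31 and −1.51, and TM7SF2 stayed past the fold threshold. For all 11, the senescent and young libraries did not overlap.

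Of the 6 fatty acid genes 4 rose with TRF2, and all 4 were higher with the offsets too. FASN went from 227, 223 and 238 to 493, 473 and 581 CPM (log2 fold change 1.17 ± 0.10 SE, adjusted p = 7.2e-08), with 0.32 under the offsets (adjusted p = 0.04). FADS2 went from 286, 268 and 274 to 508, 536 and 533 CPM (log2 fold change 0.93 ± 0.10 SE, adjusted p = 7.9e-07) and FADS1, the desaturase beside it on chromosome 11, from 199, 209 and 183 to 296, 326 and 291 (log2 fold change 0.63 ± 0.13 SE, adjusted p = 0.00054). SCD rose by 0.48 (adjusted p = 0.0059). ACACA was at 0.16 and ELOVL6 at −0.15, with adjusted p of 0.34 and 0.16. LPIN1 rose from 48.4, 62.1 and 52.01 to 129.8, 123 and 144 CPM (log2 fold change 1.29 ± 0.15 SE, adjusted p = 1.4e-06), and STARD4 was at −0.13 (adjusted p = 0.48), but higher with the offsets (0.40, adjusted p = 0.0012). Of the 18 further sterol genes, 10 rose and 4 fell (median 0.45), against 28.2% and 30.1% of all genes, and 12 and 4 did so with the offsets. ACLY, ACSS2 and SCAP rose by 0.96, 1.44 and 0.94, and LBR fell by 1.21. The further lists of fatty acid genes and of sterol export gave 9 higher and 3 lower of 21 (10 and 0 with the offsets), and 6 higher and 3 lower of 12 (7 and 2). Without replicate 3 of the empty-vector senescent cells the counts of the 3 lists were 11 and 5, 12 and 4, and 7 and 4, against 31.4% and 34.39% of all genes, with 1 more gene of the last list passing the filter.

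The third comparison asked how these genes differed after depletion of LMNB1 in young cells, and lies within 1 deposit. Of the 29 genes, 8 rose (SREBF2, HMGCS1, MVK, IDI1, FDFT1, TM7SF2, HSD17B7 and DHCR7) and 4 fell (INSIG1, FASN, ELOVL6 and LPIN1), against 16.4% and 16.1% of all genes tested, and 17 were not called. The median was 0.17, against 0.04 over all genes. With the study's threshold of 0.58 for this siRNA, HMGCS1 and TM7SF2 rose and INSIG1, ELOVL6 and LPIN1 fell, against 10.3% and 8.06%, and with the offsets HSD17B7 also passed it at 0.62. The count of rises was 4 without replicate 2 of the young cells with the empty vector or without replicate 1 of those with siLMNB1. It was 12 without replicate 3 of the empty-vector senescent cells, against 22.22% of all genes in that fit. When only the 6 libraries compared were fitted it was 16, and the share of all genes there is not reported here. The calls for MVK, IDI1, FDFT1, DHCR7 and FASN were each lost in at least 4 of the 15 fits that left out a library, with adjusted p up to 0.15, whereas the other 7 calls held in all 15.

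The regulators moved in different directions with siLMNB1. The 7 mevalonate genes all had positive log2 fold changes, between 0.06 and 1.24, and 3 of them were called. INSIG1 stood at 173, 158 and 163 CPM with the control siRNA and 78.65, 81.55 and 74.6 with siLMNB1 (log2 fold change −1.07 ± 0.09 SE, adjusted p = 3.7e-07), 2.10-fold lower on average and below every control in all 3 libraries. HMGCS1 went from 86.3, 76.9 and 84.4 to 197, 198 and 189 CPM (log2 fold change 1.24 ± 0.13 SE, adjusted p = 2.2e-06), a rise of 2.36-fold with no overlap. Both are classical targets of SREBP, and they moved in opposite directions. HMGCS1 shares 37.7% of its exonic bases with an antisense RNA, so that reads of the 2 cannot be told apart if strand was not used in counting. SREBF2 rose from 169.7, 156 and 156 to 195, 191 and 203 CPM (log2 fold change 0.29 ± 0.08 SE, adjusted p = 0.009), whereas SREBF1, at 52.6, 48.45 and 43.5 against 45.6, 39.8 and 48.55, had overlapping groups (log2 fold change −0.11 ± 0.11 SE, adjusted p = 0.47). MVK and IDI1 rose by 0.33 and 0.30, from 19.9, 18.9 and 20.4 to 24.1, 24.1 and 26.2 CPM and from 88.5, 86.5 and 90.3 to 109.9, 114 and 103 CPM. ACAT2, PMVK, MVD and FDPS lay between 0.06 and 0.34 and were not called.

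Of the 11 sterol genes 4 rose with siLMNB1 and 0 fell at an adjusted p below 0.05, nor did any fall at an unadjusted p below 0.05 or in DESeq2's Wald test. TM7SF2 went from 11.3, 8.22 and 10.4 to 24.9, 27.4 and 28.45 CPM (log2 fold change 1.44 ± 0.13 SE, adjusted p = 7.3e-07), 2.70-fold higher. HSD17B7, the ketoreductase of the demethylation complex, went from 6.97, 7.96 and 8.45 to 11.01, 11.1 and 12.15 CPM (log2 fold change 0.55 ± 0.12 SE, adjusted p = 0.0027), and FDFT1 from 187, 178 and 179.5 to 217, 222 and 216 (log2 fold change 0.27 ± 0.09 SE, adjusted p = 0.025). None of the 3 overlapped. DHCR7 rose by 0.24 (adjusted p = 0.039), and the other 7 lay between −0.15 for SC5D and 0.30 for EBP. LBR stood at 22.5, 23.35 and 23.2 CPM with siLMNB1 (log2 fold change −1.87 ± 0.14 SE, adjusted p = 9.3e-08), within the range of the senescent libraries, while TM7SF2 rose. The opposite movement of the 2 sterol reductases was thus found with siLMNB1 and in senescent cells with either vector. LMNB1 itself was at 5.65 CPM or less in all 9 of these libraries, and the genes of dividing cells were lower in each of these comparisons too. Whether either has a part in this movement was not tested. The comparison of senescent cells with the empty vector and that of siLMNB1 use the same 3 control libraries, so their values for these genes are not independent.

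Fatty acid genes fell or were not called with siLMNB1. ELOVL6 stood at 57.6, 56.1 and 57.98 CPM with the control and 29.4, 25.1 and 26.03 with siLMNB1 (log2 fold change −1.09 ± 0.09 SE, adjusted p = 3.2e-07). FASN went from 257, 262 and 239 to 189.9, 195 and 216 CPM (log2 fold change −0.34 ± 0.10 SE, adjusted p = 0.019). Both were lower in all 3 siLMNB1 libraries. LPIN1 fell from 55.1, 55.4 and 54.3 to 35.95, 33.2 and 28.2 CPM (log2 fold change −0.76 ± 0.15 SE, adjusted p = 0.00093), whereas it had risen in senescent cells. ACACA, SCD, FADS1 and FADS2 were at −0.24, −0.07, 0.21 and 0.17, and STARD4 at −0.06, none of them called. Of the 18 further sterol genes, 4 rose and 7 fell (4 and 9 with the offsets), against 16.4% and 16.1% of all genes, among them ACSS2 at 0.31 and INSIG2 at −0.51. SCAP and ACLY were at −0.20 and −0.21, with adjusted p of 0.084 and 0.064. Of the 21 further fatty acid genes 3 rose and 4 fell (2 and 5 with the offsets), and of the 12 genes of sterol export and storage 5 rose, MYLIP by 0.49 among them, and 1 fell, with ABCA1 at −0.34 (adjusted p = 0.2). With the offsets the export list gave 6 higher and 1 lower. Without replicate 3 of the empty-vector senescent cells the 3 lists gave 5 and 11, 6 and 5, and 9 and 2, against 22.22% and 22.23% of all genes. The last list had 13 tested genes in that fit. With the offsets the 29 genes gave 10 rises and 5 falls, against 19.75% and 18.96% of all genes. All 4 genes that had fallen also fell there, and 6 of the 8 that had risen also rose, MVK (0.28, adjusted p = 0.05) and DHCR7 (0.20, adjusted p = 0.09) losing their call.

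TRF2 was also compared with the empty vector within each state. By the study's methods, young cells carried the vector for days and senescent cells for many population doublings. State and length of exposure to TRF2 therefore cannot be told apart. In young cells 0 of the 29 genes were called in either direction by edgeR, where 0.152% of all genes tested rose and 0.0253% fell. The count was 0 at an unadjusted p below 0.05 and 0 in DESeq2's Wald test as well, and the log2 fold changes lay between −0.36, for CYP51A1, and 0.19, for FADS1. In senescent cells 8 genes were higher with TRF2 (SQLE, MSMO1, DHCR7, FASN, SCD, FADS1, FADS2 and STARD4), against 4.87% of all genes, and 0 were lower, against 6.41%. At an unadjusted p below 0.05, 17 were higher and 1, PMVK, lower, and DESeq2's Wald test called 12 higher and 1 lower. The median was 0.25, against −0.02 over all genes.

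SCD stood at 556, 496.5 and 338 CPM in senescent cells with the empty vector and 721, 733 and 756 with TRF2 (log2 fold change 0.67 ± 0.14 SE, adjusted p = 0.0059). FADS1 went from 246, 179.5 and 153 to 296, 326 and 291 (log2 fold change 0.66 ± 0.13 SE, adjusted p = 0.0047) and FADS2 from 428, 309 and 356 to 508, 536 and 533 (log2 fold change 0.53 ± 0.10 SE, adjusted p = 0.0038). For all 3 desaturases every TRF2 library was above every library with the empty vector, and the latter were the more scattered. FASN was at 0.36 (adjusted p = 0.032), so that 4 of the 6 fatty acid genes were called. Of the sterol genes, MSMO1 went from 345, 277 and 234 to 387, 363 and 422.5 CPM (log2 fold change 0.45 ± 0.11 SE, adjusted p = 0.017), DHCR7 from 315, 268 and 279.9 to 378, 383 and 412 (log2 fold change 0.44 ± 0.08 SE, adjusted p = 0.004) and SQLE from 169, 135 and 114 to 178, 169 and 189.5 (log2 fold change 0.36 ± 0.11 SE, adjusted p = 0.041). Their groups did not overlap either. STARD4 went from 46.3, 34.5 and 23.65 to 53.4, 51.01 and 53.4 CPM (log2 fold change 0.60 ± 0.16 SE, adjusted p = 0.024), with the young libraries with the empty vector at 55.75, 55.8 and 52.3. The SREBF genes and INSIG1 were not called, at 0.02, 0.21 and 0.27, though SREBF2 and INSIG1 passed an unadjusted p below 0.05. So did 5 of the 7 mevalonate genes, none of them called, with PMVK among them as lower (−0.39). Among the further genes ACSS2 was higher with TRF2, by 0.58, and 9 of the 18 sterol genes were called higher, against 4.87% of all genes. The count was 11 with the offsets, against 7.564%, and 7 without replicate 3 of the cells with the empty vector, against 5.341%.

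These calls depended on which libraries were fitted. With only the 6 senescent libraries fitted, 0 of the 29 genes were called and the adjusted p of the 8 genes lay between 0.11 and 0.30, with log2 fold changes between 0.36 and 0.67. Without replicate 3 of the cells with the empty vector 13 were higher, against 5.341% of all genes in that fit. Without replicate 1 of them 18 were higher, and without replicate 1 or 3 of the cells with TRF2 4. The shares of all genes in these last fits are not reported here. With the GC and length offsets 14 were higher, all 8 among them, against 7.564% of all genes. The calls for DHCR7, SCD, FADS1 and FADS2 held when any one of the 15 libraries was left out, whereas that for SQLE was lost in 13 of these fits, and those for MSMO1, FASN and STARD4 in 2 to 4.

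**Figure D4:**
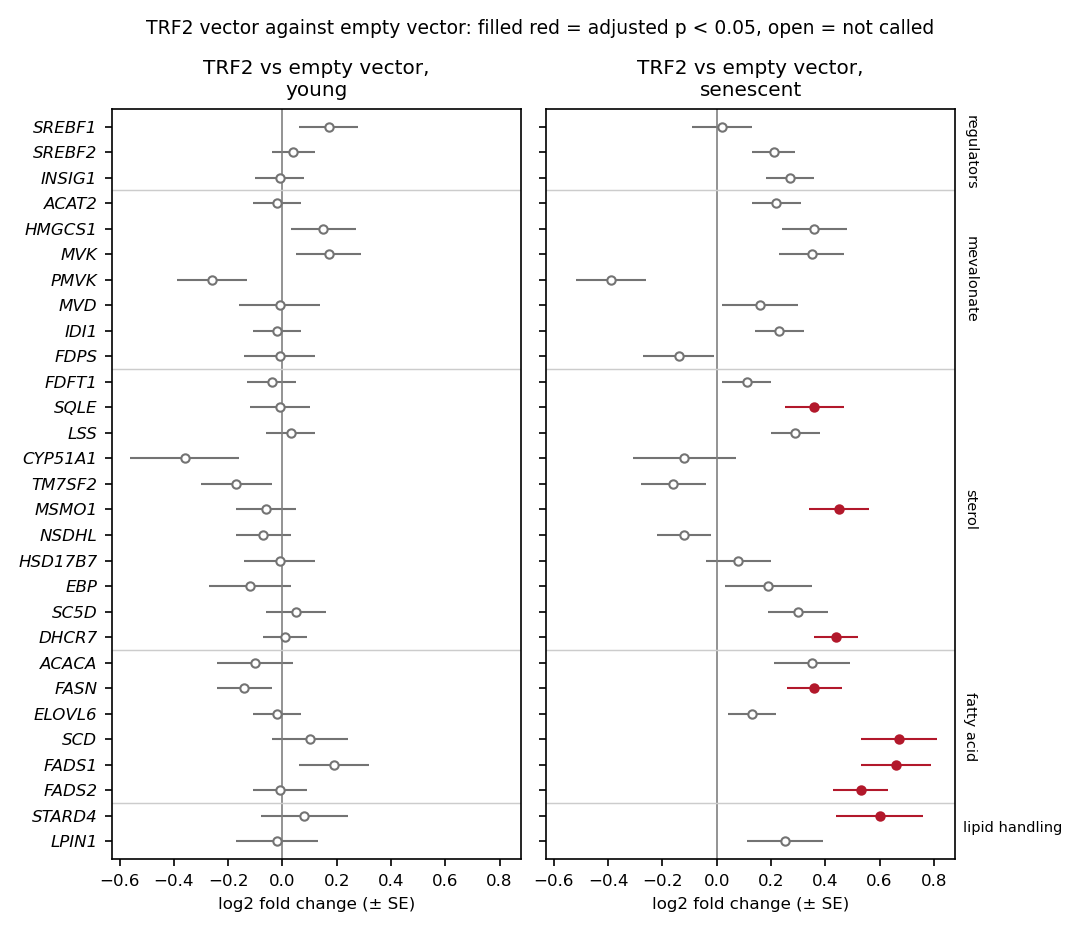
Log2 fold changes (horizontal axis, ± SE) of the 29 genes (vertical axis) between cells with TRF2 and with the empty vector, in young (left) and senescent cells (right). No gene is called in young cells, where all values lie between −0.36 and 0.19, and the 8 genes called in senescent cells lie between 0.36 and 0.67.

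The length of exposure to TRF2, which differs between the 2 states, enters the next comparison as well. The difference between the 2 states in the effect of TRF2, which is also the difference between the 2 senescence comparisons, was tested as an interaction. It was called for 0 of the 29 genes by edgeR, where 0.177% of all genes were higher and 0.956% lower. At an unadjusted p below 0.05 it was higher for 10 genes, and DESeq2's Wald test called 3. The smallest adjusted p was 0.084, for FADS2 (0.54), followed by DHCR7 (0.43, adjusted p = 0.1) and FASN (0.50, adjusted p = 0.11). It was called for 9 genes without replicate 1 of the empty-vector senescent cells, where the share of all genes is not reported here. The count was 4 without replicate 3 of them, against 0.7118% of all genes higher, and 2 with the offsets, against 0.4937%. The signed log2 fold change of senescence was higher with TRF2 than with the empty vector for 25 of the 29 genes. The same held for 46.19% of all genes tested, and the median difference over the 29 genes was 0.25. This count is of signed values, so it includes genes that fell less with TRF2, such as EBP (−1.71 with the empty vector and −1.39 with TRF2). That the genes passing the test differ between the 2 senescence comparisons therefore does not show, gene by gene, that their responses differ.

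The study looked at genes near chromosome ends, and 4 of the 29 genes lie within 2 Mb of one. LSS is 0.481 Mb from the end of 21q, IDI1 1.04 Mb from the end of 10p, FASN 1.16 Mb from the end of 17q and MVD 1.68 Mb from the end of 16q. All 4 rose in senescent cells with either vector, by 0.78, 0.59, 0.67 and 1.93 with the empty vector and by 1.05, 0.84, 1.17 and 2.09 with TRF2. Of all genes 32.7% and 28.2% rose, and of the 29 genes 19 and 22. With the empty vector only MVD passed the study's fold threshold of 1. The study named 16q among the ends enriched in upregulated genes of its senescent MRC-5 cells, but not 21q, 10p or 17q. Whether nearness to an end has a part in these rises was not tested. With the offsets they came to 0.36, 0.99, −0.33 and 1.07 with the empty vector, FASN changing sign, and to 0.72, 1.17, 0.32 and 1.47 with TRF2. With siLMNB1, IDI1 rose, FASN fell, and LSS and MVD were not called.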

How the data were processed

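RNA-seq of MRC-5 cells was analysed in 15 libraries, 3 in each of 5 groups taken from the labels. The raw count of reads on each gene, without normalization, is what the authors deposited, after trimming with Trimmomatic and mapping with STAR to GRCh38. The annotation release and the strand setting are not given in the sources used here. Genes were named, placed and measured with GENCODE 44, and promoters came from RefSeq on GRCh38.

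Counts were scaled by TMM, filtered with filterByExpr (15799 of 57272 genes) and modelled with a mean for each group (edgeR 4.0.16, R 4.3.3). Its quasi-likelihood test was two-sided, with p-values adjusted by Benjamini-Hochberg over all genes tested, and a gene was called at an adjusted p below 0.05. CPM use the library sizes scaled by TMM, and RPKM divide CPM by exonic length. The study calls its triplicates biological replicates, and neither its methods nor the labels say whether they were separate cultures, so p-values measure the spread between these libraries. That spread includes the counting error, which is not small beside it for every gene. With 3 libraries a group, that spread limits the precision.

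The 29 genes and all lists were chosen with earlier results of these data known. All 29 are named. Values for each library are given for both SREBF genes, INSIG1 and, in each comparison, the up to 3 called genes of each role with the largest log2 fold changes, and values of the further lists for LBR, SCAP, INSIG2, ACLY, ACSS2, ABCA1 and MYLIP. Other genes that this rule named are not reported here, though the counts over the further lists include them. LMNB1 and TERF2 served as checks. Where a sentence on a further gene does not give its p, the call was at an adjusted p below 0.05.

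Alternatives were DESeq2 1.42.0 (size factors and Wald test), no filter, only the libraries compared, a replicate block, offsets for GC content and length (loess, span 0.3, prior count 1), genes sharing no exonic base, and each library left out. Leaving out EBP and CYP51A1 was chosen after seeing the data. The fits were tested on simulated data. Python 3.11.15 with pandas 2.3.3 and matplotlib 3.10.9 served for promoters and figures. Same-numbered replicates did not deviate together (correlations of their deviations between −0.09 and 0.06), and no pair of replicates differed by so little that it could be the same library.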

Additional observations from a re-analysis of the deposited data

How the results depend on the processing

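The 66 called values of the 29 genes kept their direction and call in 64 cases with DESeq2's size factors, 66 with its Wald test, 63 without a filter, 55 with only the libraries compared, 66 with the replicate block and 58 with the GC and length offsets. With the offsets 4 lost their call, SREBF2 and INSIG1 in senescent cells with the empty vector and MVK and DHCR7 with siLMNB1, and 4 turned in sign, all in senescent against young cells carrying the empty vector: FASN to −0.33, ELOVL6 to 0.11, FADS2 to −0.12 and STARD4 to 0.10. Of these, FASN alone was called in its new direction, and ELOVL6, FADS2 and STARD4 were no longer called. Adding the replicate block to the offsets gave −0.34, 0.11, −0.12 and 0.10 for FASN, ELOVL6, FADS2 and STARD4. Of the 990 values from fits that left out a library, 925 kept their call, 65 lost it and 0 turned. The same-numbered replicates share only a number, and the block moved the counts of higher genes to 9 in the siLMNB1 and the senescent TRF2 comparison, from 8 each.

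Of the 12 genes without an exonic base in common with another gene, 7 rose and 1 fell in senescence with the empty vector (past the fold threshold 2 and 0), 9 rose and 0 fell with TRF2 (4 and 0), 2 rose and 2 fell with siLMNB1 (0 and 1), and 5 were higher with TRF2 in senescent cells. This counts fewer genes by construction. Without EBP and CYP51A1, 0 genes fell past the fold threshold with either vector and 0 fell at all with TRF2. Fitting only the libraries compared gave 16 higher genes with siLMNB1 and 0 for TRF2 in senescent cells. The offsets gave 2 lower genes in senescent cells with TRF2, 14 higher for TRF2 in senescent cells and 2 for the interaction, or 2, 15 and 2 with the replicate block added. DESeq2's Wald test gave 1 lower for TRF2 in senescent cells and 3 for the interaction, and no filter gave 1 and 4. The causes were not tested, and shares of all genes that were not given above for these fits are not reported here.

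With each library left out, the counts of higher and lower genes ranged from 17 to 21 and 4 to 6 in senescence with the empty vector (past the fold threshold 3 to 6 and 1), from 22 to 23 and 1 to 2 with TRF2 (8 to 9 and 1), and from 4 to 12 and 3 to 5 with siLMNB1 (2 to 3 and 3). For TRF2 in senescent cells they ranged from 4 to 18 and 0 to 1, and for the interaction from 0 to 9 and 0. In young cells TRF2 gave 0 in every fit. The share of all genes called also moved between fits. With siLMNB1, 16.4% of all genes rose with all libraries and 22.22% without replicate 3 of the empty-vector senescent cells. These ranges are therefore not about the 29 genes alone, and shares not given above are not reported here.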
